A study of Mus musculus with 24 samples.

Results

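A set of 6 receptors of natural killer (NK) cells was followed through B16 mouse melanomas treated with T cells that make interleukin 12: Klrd1, Klrk1, Klrg1, Klre1, Klrb1c and Ncr1. They were chosen by name, and each gene was read from a probeset whose annotation lists that gene alone. All 6 of 6 had 1 such probeset, among 19938 genes read in the same way. The 6 were split by textbook knowledge into 3 receptors that activated CD8 T cells also carry (Klrd1, Klrk1, Klrg1), 2 that are largely restricted to NK and NK-like cells (Klrb1c, Ncr1), and Klre1, which is found on NK cells and part of the CD8 T cells and was put in neither class. This split was made with earlier results of these data known.

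Every mouse, aged 6 to 12 weeks, carried a subcutaneous tumour grown from 500000 cells of B16, a pigmented mouse melanoma line. Mice of both treated arms were given 5 Gy to the whole body and an infusion of 100000 CD8+ T cells of the pmel-1 type, whose transgenic receptor recognises a melanocyte protein; the labels mention no irradiation of the untreated mice. In the Mock arm the transferred cells were not transduced, and in the IL-12TD arm they were transduced with IL-12. Whole tumours were dispersed and their RNA was hybridised to 24 Affymetrix arrays, with 4 biological replicates of each arm, untreated tumours included, on day 3 and on day 7. Mock against no treatment therefore differs in irradiation and in transferred cells together, while IL-12TD against Mock differs in the transduction. Day cannot be told apart from any processing batch, since the labels give none.

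Killer lectin-like receptors let a lymphocyte weigh activating against inhibitory signals from the cell it touches. The protein of Klrd1, CD94, pairs with an NKG2 chain, among them the inhibitory product of Klrc1 (NKG2A) and the activating product of Klrc2 (NKG2C), and reads the non-classical MHC molecule Qa-1. Klrk1 encodes NKG2D, an activating receptor for stress-induced ligands such as the Raet1 and H60 proteins that signals through the adaptors Hcst (DAP10) and Tyrobp (DAP12). Klrg1 is an inhibitory receptor for cadherins and a marker of late effector T cells, Klrb1c encodes the NK1.1 antigen, and Ncr1 encodes the activating receptor NKp46.

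Levels are log2 RMA signals, an array scale on which a difference of 1 is a doubling. In a whole tumour, fewer cells of a type and less RNA per cell cannot be told apart. As a yardstick for genes not expected in a tumour, the 95th percentile of the 1027 olfactory receptor genes averaged 4.84 and ran from 4.55 to 5.16 between arrays. One array stood apart. In the untreated day 3 tumour numbered 4, the mean of 13 pan-leukocyte markers was 7.47 against 5.76 to 6.6 in the other 3 of its group, and Klrd1, Klrg1, Klrb1c and Ncr1 were higher on it than on any other of the 16 arrays without IL-12TD. Where leaving it out changed a receptor call or moved a value most, both values are given, as for the correlations between receptors, recomputed without it after seeing the data.

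The start-site regions of the genes were searched for short sequence motifs, as a description only. RefSeq start sites were at hand for 4 of the 6, Klrk1, Klre1, Klrb1c and Ncr1, on build GRCm38.p6. The bases before the start are printed 5′ to 3′ on the gene's strand, 250 for 3 genes and 211 for Klrk1, whose last 39 before the listed start lie inside the gene's outermost RefSeq start and are not printed. Capitals mark the letters TGTGGT, the core that RUNX transcription factors bind, or their reverse complement. RUNX factors are known regulators of NK and CD8 T cell genes, but the motif was chosen after the sequences were seen. Of the receptors shared with CD8 T cells, only Klrk1 has a window here.
Klrk1, chr6:129623904-129624114, minus strand: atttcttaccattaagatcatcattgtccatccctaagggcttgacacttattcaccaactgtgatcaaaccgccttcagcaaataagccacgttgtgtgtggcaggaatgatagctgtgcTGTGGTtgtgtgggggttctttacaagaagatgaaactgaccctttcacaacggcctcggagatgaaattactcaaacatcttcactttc
Klre1, chr6:129577963-129578212, plus strand: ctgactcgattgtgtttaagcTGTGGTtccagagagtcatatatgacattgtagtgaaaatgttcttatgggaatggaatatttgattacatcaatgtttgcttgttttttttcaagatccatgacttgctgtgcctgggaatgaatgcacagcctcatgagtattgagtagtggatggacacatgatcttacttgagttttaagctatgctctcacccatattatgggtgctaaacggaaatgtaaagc
Klrb1c, chr6:128788642-128788891, minus strand: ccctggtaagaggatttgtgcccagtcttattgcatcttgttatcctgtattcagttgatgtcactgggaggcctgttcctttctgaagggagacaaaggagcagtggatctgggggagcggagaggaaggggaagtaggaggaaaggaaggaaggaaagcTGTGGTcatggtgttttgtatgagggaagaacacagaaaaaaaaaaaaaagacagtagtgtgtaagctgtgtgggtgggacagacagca
Ncr1, chr7:4337465-4337714, plus strand: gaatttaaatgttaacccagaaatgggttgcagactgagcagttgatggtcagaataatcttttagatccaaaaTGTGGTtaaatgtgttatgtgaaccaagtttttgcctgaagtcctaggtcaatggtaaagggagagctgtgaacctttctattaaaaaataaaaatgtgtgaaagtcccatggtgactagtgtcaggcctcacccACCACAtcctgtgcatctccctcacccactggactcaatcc

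The RUNX core lay within the 250 bases before the start in all 4, at -129 in Klrk1, -229 in Klre1, -89 in Klrb1c, and -176 and -41 in Ncr1, counted from the listed start, and on either strand it occurred in 14.2% of 27025 such windows. The T-box half-site GGTGTGA, bound by factors such as Tbx21 and Eomes, was in 0 of the 4 windows and in 3.31% of all. TTCNNNGAA, the letters that STAT factors bind, was in 0 of the 4 and in 7.18% of all. None of the 3 motifs overlaps another, and a match or its lack is a description of these letters only. Since the motifs were chosen after the sequences were seen, the RUNX match in all 4 cannot be weighed against the 14.2%. In RefSeq gene order Klre1, Klrd1 and Klrk1 are direct neighbours on chromosome 6, followed by Klrc3; Klrb1c lies between Klrb1 and Klrb1b on the same chromosome, where Klrg1 also lies, and Ncr1 is on chromosome 7.

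The receptors shared with CD8 T cells were high in IL-12TD tumours and low elsewhere. Klrd1 measured 6.80, 7.04, 7.28 and 6.91 in the IL-12TD tumours of day 3 and 6.18, 6.06, 6.5 and 6.14 in those of day 7. In Mock tumours it measured 3.86, 3.54, 4.21 and 3.55 at day 3 and 4.10, 4.39, 4.57 and 3.83 at day 7. Untreated tumours gave 3.26, 3.77, 3.35 and 4.65 at day 3 and 3.77, 3.78, 3.99 and 3.76 at day 7. All 8 IL-12TD arrays lay above all 16 others, and the day 3 and day 7 IL-12TD arrays did not overlap either. Only 1 of the 16 arrays without IL-12TD, the untreated day 3 array numbered 4, exceeded the olfactory yardstick of its own array.

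Klrk1, the activating NKG2D, measured 5.46, 5.69, 5.82 and 5.80 in IL-12TD tumours at day 3 and 5.09, 4.90, 4.80 and 5.38 at day 7. Its Mock values were 3.80, 3.56, 3.84 and 3.67 at day 3 and 3.41, 3.61, 3.72 and 4.03 at day 7, and its untreated values ran from 3.12 to 3.97 at day 3 and from 3.39 to 3.67 at day 7. Again all 8 IL-12TD arrays exceeded the 16 others. Klrk1 passed the olfactory yardstick on 4 of 4 IL-12TD arrays at day 3, on 2 of 4 at day 7 and on 0 of 16 elsewhere.

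Klrg1, the late effector marker, measured 6.17, 5.91, 5.65 and 6.13 in IL-12TD tumours at day 3 and 6.0, 6.5, 6.15 and 5.79 at day 7. The Mock arrays gave 3.63, 3.49, 3.42 and 3.74, then 4.07, 3.90, 4.35 and 3.63. Untreated tumours gave 3.02, 3.56, 3.31 and 5.05 at day 3, the last of them the array that stands apart, and 3.63, 3.66, 4.05 and 3.89 at day 7. The 8 IL-12TD arrays were the highest 8, and the days overlapped within that arm. Having all 8 IL-12TD arrays above the other 16 was thus true of 3 of the 6 receptors and of 1.95% of all genes. Against Mock alone, the IL-12TD arrays of day 3 lay above without overlap for 3 of 6 receptors (13.3% of all genes) and those of day 7 for 4 of 6 (10.4% of all genes), the fourth being Ncr1. Within the IL-12TD arm, the day 7 arrays lay below those of day 3 without overlap for Klrd1 and Klrk1, 2 of 6, beside 18.4% of all genes.

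**Figure D1:**
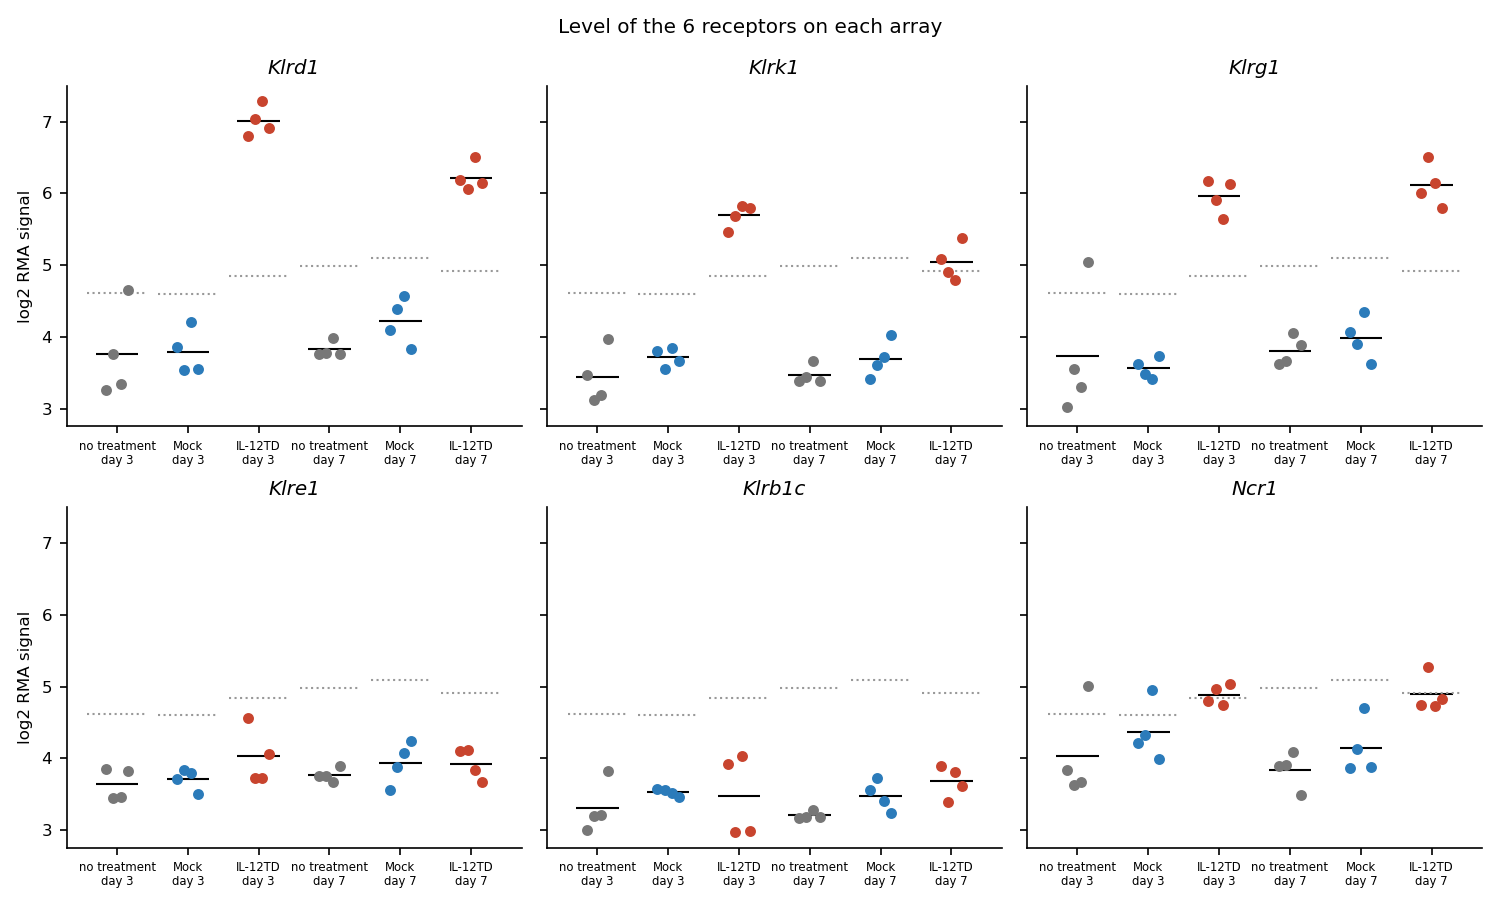
Log2 RMA signal (y axis) of each receptor on each of the 24 arrays, by group (x axis); points are arrays, black lines group means, and dotted lines the group's mean 95th percentile of olfactory receptor genes. Klrd1, Klrk1 and Klrg1 separate all 8 IL-12TD arrays from the rest, whereas Klre1 and Klrb1c stay under the dotted lines in every group.

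The NK-restricted pair spans a narrower range on these arrays. Ncr1 measured 4.80, 4.97, 4.74 and 5.04 in IL-12TD tumours at day 3 and 4.75, 5.27, 4.73 and 4.83 at day 7. Mock tumours gave 4.21, 4.33, 4.95 and 3.99 at day 3 and 3.87, 4.13, 4.71 and 3.89 at day 7. Untreated tumours gave 3.84, 3.63, 3.68 and 5.01 at day 3 and 3.89, 3.91, 4.09 and 3.49 at day 7. The IL-12TD arrays did not overlap those of Mock at day 7 but overlapped them at day 3, and 2 of the 8 exceeded all 16 others. Ncr1 passed the olfactory yardstick on 2 of 4 IL-12TD arrays at day 3, on 1 of 4 at day 7 and on 2 of 16 elsewhere. Its differences are thus also read near the level where array signals compress.

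Klrb1c, the NK1.1 gene, measured 3.93, 2.97, 4.04 and 2.99 in IL-12TD tumours at day 3 and 3.90, 3.4, 3.81 and 3.61 at day 7. Mock values were 3.57, 3.56, 3.52 and 3.46 at day 3 and 3.56, 3.73, 3.41 and 3.24 at day 7, and untreated values ran from 3.00 to 3.82 at day 3 and from 3.17 to 3.28 at day 7. The day 3 IL-12TD arrays fell into a high and a low pair that bracket all 4 Mock values. Klre1 ran from 3.67 to 4.57 over the 8 IL-12TD arrays and from 3.45 to 4.24 over the other 16. Klrb1c and Klre1 were above the olfactory yardstick on 0 of 24 arrays, so at this signal a change in either could go unseen.

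Ordered by group means, Klrd1 ran from IL-12TD day 3 (7.01) to IL-12TD day 7 (6.22), Mock day 7 (4.22), untreated day 7 (3.83), Mock day 3 (3.79) and untreated day 3 (3.76). Only the first 2 steps separate groups without overlap, and the lower 4 groups overlap their neighbours. For Klrk1 the order began with IL-12TD day 3 (5.70), IL-12TD day 7 (5.04) and Mock day 3 (3.72), with the same 2 gaps. Klrg1 had a single gap, between IL-12TD day 3 (5.97) and Mock day 7 (3.99). Klre1, Klrb1c and Ncr1 had none: each neighbouring pair of groups overlapped.

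IL-12TD against Mock asks what the IL-12 transduction of the transferred cells adds. At day 3, Klrd1 rose by 3.22 ± 0.21 (SE, n = 4 per group), a 9.3-fold difference (limma, adjusted p = 8.38e-12). Klrg1 rose by 2.40 ± 0.26, or 5.27-fold (adjusted p = 7.03e-08), and Klrk1 by 1.98 ± 0.16, or 3.94-fold (adjusted p = 5.27e-10). These were 3 of the 6 receptors, all higher, beside 43.2% of all genes called in either direction and 17.3% called higher. The Mock values lie at the level of the olfactory genes, where array signals compress differences, so the folds are not exact.

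The other 3 receptors did not pass at day 3. Ncr1 differed by 0.52 ± 0.24 (95% interval 0.03 to 1.0, adjusted p = 0.0801), Klre1 by 0.31 ± 0.17 (-0.03 to 0.65, adjusted p = 0.134) and Klrb1c by -0.045 ± 0.20 (-0.45 to 0.36, adjusted p = 0.867). For Ncr1 the call depended on single arrays: it passed in limma at an adjusted p of 0.0242 without Mock day 3 array 3. Without the untreated day 3 array numbered 4, which is in neither group compared, it passed at 0.0278. The difference stayed at 0.52, and the SE went from 0.24 to 0.19 through the spread estimated over all groups. Ncr1 also passed with array weights (0.0443) and with only the compared groups in the fit (0.0295).

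At day 7 the same 3 shared receptors were higher and Ncr1 also passed, 4 of 6, beside 21.7% of all genes called and 12.9% called higher. The Ncr1 effect was not called different between days (0.23, limma interaction, adjusted p = 0.586). Klrg1 rose by 2.12 ± 0.26 (4.36-fold, adjusted p = 6.89e-07), Klrd1 by 2.00 ± 0.21 (3.99-fold, adjusted p = 6.35e-08) and Klrk1 by 1.35 ± 0.16 (2.55-fold, adjusted p = 4.14e-07). Ncr1 rose by 0.75 ± 0.24, or 1.68-fold (adjusted p = 0.0255). Klrb1c differed by 0.20 ± 0.20 (95% interval -0.21 to 0.60, adjusted p = 0.489) and Klre1 by -0.003 ± 0.17 (-0.34 to 0.34, adjusted p = 0.992). The Ncr1 call was lost without Mock day 7 array 1 (adjusted p = 0.0578), 2 (0.0561) or 4 (0.0817), without IL-12TD day 7 array 2 (0.0782), without the day 7 arrays numbered 1 (0.078), and when all probesets were tested together (0.0506).

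**Figure D2:**
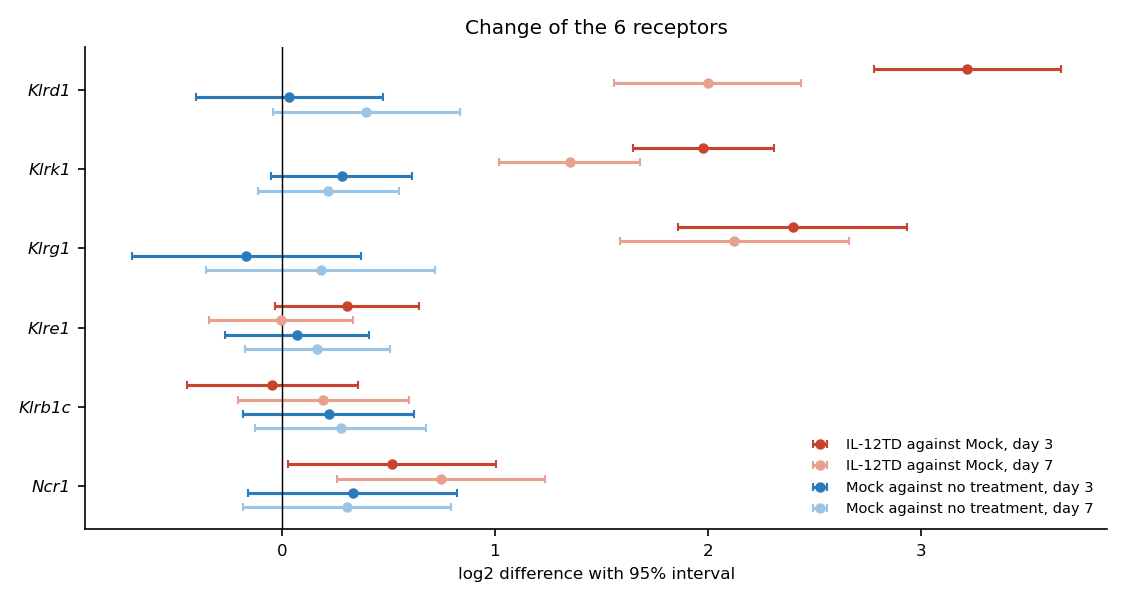
Log2 difference of each receptor (x axis, points) with its 95% interval from the limma fit (bars), 4 arrays per group, for IL-12TD against Mock and Mock against no treatment at both days. The IL-12TD intervals of Klrd1, Klrk1 and Klrg1 lie far above 0, and all intervals of Mock against no treatment include 0.

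Against untreated tumours, which share the IL-12TD arrays with the comparison above, 4 of 6 receptors were higher at each day, beside 41.9% of all genes called at day 3 (16.1% higher) and 20.4% at day 7 (11.8% higher). At day 3 Klrd1 rose by 3.25, Klrk1 by 2.26, Klrg1 by 2.23 and Ncr1 by 0.85 (adjusted p = 0.00568). Leaving out the untreated array that stands apart gave 3.55, 2.44, 2.67 and 1.17 for the same genes, and 0.35 for Klrb1c and 0.43 for Klre1 (adjusted p = 0.164 and 0.056). At day 7 the rises were 2.39, 1.57, 2.31 and 1.05 (adjusted p = 0.00167 for Ncr1). Klrb1c gave 0.18 at day 3 and 0.47 at day 7 (adjusted p = 0.485 and 0.093), and Klre1 gave 0.38 and 0.16 (0.0676 and 0.559). Klrb1c at day 7 passed with array weights (0.0199) and with only the compared groups in the fit (0.0209). Klre1 at day 3 passed with array weights (0.0285), without untreated array 1 (0.0457) and without IL-12TD array 2 (0.0333) or 3 (0.036).

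Mock against no treatment asks what irradiation and unmodified pmel-1 cells did together. In limma, 0 of the 6 receptors passed at either day, beside 0% of all genes. At an unadjusted p under 0.05 there were also 0 of the 6, against 329 genes at day 3 and 2767 at day 7. The largest receptor difference was 0.40 for Klrd1 at day 7 (95% interval -0.04 to 0.83), and Ncr1 differed by 0.33 at day 3 (-0.16 to 0.82) and 0.31 at day 7 (-0.18 to 0.80). For Klrd1 at day 7 the interval was 0.06 to 0.73 once the untreated day 3 array numbered 4 was left out (limma, adjusted p = 0.302). That array is in neither day 7 group, so the difference stayed at 0.40 and only the estimated spread changed. Without the untreated day 3 array numbered 4, Ncr1 differed by 0.66 at day 3 (0.24 to 1.07) and Klrk1 by 0.46 (0.14 to 0.77), each with an adjusted p of 1, while Klrd1, Klrg1, Klre1 and Klrb1c gave 0.33, 0.27, 0.13 and 0.39 with intervals that include 0.

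Between days, Klrd1 and Klrk1 declined within the IL-12TD arm and Klrg1 did not pass the test. From day 3 to day 7, Klrd1 fell by 0.79 (adjusted p = 0.00411) and Klrk1 fell by 0.65 (adjusted p = 0.00194), 2 of 6 receptors beside 41.8% of all genes called and 21.6% called lower. Klrg1 differed by 0.14 (95% interval -0.39 to 0.68, adjusted p = 0.687) and Ncr1 by 0.01 (-0.48 to 0.50). No receptor passed between days in Mock or untreated tumours, where 50.9% and 35.5% of all genes did; at an unadjusted p under 0.05 the count was 0 of 6 in both. Without the untreated day 3 array numbered 4, Klrg1 passed between days in untreated tumours, at 0.51 (limma, adjusted p = 0.030). Klrd1 and Klrg1 then passed in Mock tumours, at 0.43 and 0.42 (0.0328 and 0.0366). These Mock differences are the same with that array in the fit, and only the spread estimated over all groups changed. The other settings in which a receptor passed are among the processing alternatives.

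The effect of IL-12TD over Mock was itself smaller at day 7 for 2 receptors, beside 42.5% of all genes called in this interaction and 18.4% called lower. The difference between the effects was -1.22 ± 0.30 for Klrd1 (adjusted p = 0.00285) and -0.63 ± 0.23 for Klrk1 (adjusted p = 0.030). The Klrk1 call held in 26 of 34 alternatives. A repeated quantile normalization ended it (adjusted p = 0.0704), as did leaving out Mock day 3 array 2 (0.057) or 4 (0.0517), IL-12TD day 3 array 3 (0.0575) or 4 (0.052), Mock day 7 array 4 (0.0749), or IL-12TD day 7 array 2 (0.0523) or 3 (0.0686). For Klrg1 the difference was -0.27 ± 0.37 (95% interval -1.03 to 0.48, adjusted p = 0.552), for Klre1 -0.31, for Klrb1c 0.24 and for Ncr1 0.23. Markers of T cells moved with this: the effect was smaller at day 7 for 9 of 13, Cd8a among them at -0.95 (adjusted p = 0.00267), and the part of T cell content in the receptor result was not tested.

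To compare the shared receptors with the NK-restricted ones directly, each array's mean of Klrb1c and Ncr1 was subtracted from every gene before the fit. Since the classes were set with earlier results of these data known, the p-values below are not independent support for the split. Against Mock that pair changed by 0.24 at day 3 and 0.47 at day 7, and the mean of the 3 shared receptors by 2.53 and 1.82. At day 3, Klrd1 exceeded the pair by 2.98, Klrg1 by 2.16 and Klrk1 by 1.74, 3 of the 4 receptors compared, beside 3.1% of all genes called higher than the pair. At day 7, Klrg1 exceeded it by 1.65, Klrd1 by 1.53 and Klrk1 by 0.88, beside 3.25% of all genes. Every gene in this fit carries the noise of the pair, so that the moderated test pools it too strongly. With an ordinary t per gene, chosen after seeing the data, lmFit called the same 3 receptors at both days, beside 2.8% of all genes called higher at day 3 and 2.73% at day 7. The adjusted p were 2.95e-10, 4.78e-06 and 8.65e-06 for Klrd1, Klrg1 and Klrk1 at day 3, and 2.64e-06, 0.000152 and 0.00569 at day 7.

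Klre1 did not pass against the pair, at 0.07 for day 3 (95% interval -0.39 to 0.53 by the ordinary t) and -0.47 for day 7 (-0.93 to -0.02, adjusted p = 0.0762). Klre1 passed below the pair at day 7 with array weights, with only the compared groups in the fit, and without the untreated day 3 array numbered 4. Klrb1c lies under the olfactory yardstick throughout, and Ncr1 passed it on 5 of 24 arrays. This limits what the pair, or either gene alone, can show as a reference. Measured against Ncr1 alone, Klrd1 still rose more, by 2.70 at day 3 and 1.25 at day 7, and so did Klrg1, by 1.88 and 1.38. For Klrd1 the adjusted p were 3.88e-14 and 0.0021 by the moderated test, which pools the noise of Ncr1 too strongly. By the ordinary t they were 2.02e-07 and 0.00162. Klrk1 rose more than Ncr1 by 1.46 at day 3 but gave 0.60 at day 7 (95% interval -0.03 to 1.24, adjusted p = 0.0810; 0.0369 by the ordinary t), and Klre1 was lower than Ncr1 by -0.75 at day 7 (adjusted p = 0.0324). Measured against Klrb1c alone, Klrd1, Klrk1 and Klrg1 were called at both days.

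A second reference was the mean of 13 T cell markers, genes such as Cd3e, Cd8a and Lat, which rose by 2.16 at day 3 and 1.38 at day 7 against Mock. At day 3 the single markers ran from 0.16 (Trat1) to 4.99 (Cd3g), so members that moved little lower this mean. Cd8a (3.00) and Cd3e (3.12) rose about as much as Klrd1 (3.22). Klrd1 rose more than the 13-gene mean by 1.06 at day 3 (adjusted p = 3.26e-06) and by 0.62 at day 7 (adjusted p = 0.0033). Klrg1 rose more by 0.74 at day 7 (adjusted p = 0.00203) and by 0.24 at day 3 (adjusted p = 0.290). Klrk1 gave -0.18 and -0.03 (adjusted p = 0.288 and 0.862). The rise of Ncr1 was less than that of the markers by 1.64 and 0.63 on the log2 scale, that of Klrb1c by 2.20 and 1.19, and that of Klre1 by 1.85 and 1.38, each with an adjusted p under the threshold. In all, 4 receptors differed from the markers at day 3 (99.3% of all genes did, 0.326% higher and 99% lower) and 5 at day 7 (97.2%, 0.973% higher and 96.2% lower), so a place above the markers was uncommon and a place below them was not. With the moderation left out the same receptors were called, beside 0.296% of genes higher and 98.9% lower at day 3 and 0.908% and 95.7% at day 7.

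The place of the shared receptors depended on which T cell genes were the reference. The 3 Cd3 chains alone rose by 3.59 at day 3 and 2.54 at day 7, and against them Klrd1 turned to -0.37 and -0.54 (adjusted p = 0.213 and 0.0708), and Klrg1 to -1.19 and -0.41 (6.68e-05 and 0.166). By the ordinary t, Klrd1 at day 7 was called lower than the Cd3 chains (adjusted p = 0.0125) and at day 3 it was not (0.0717). Klrk1 was then below the reference at both days, by -1.61 and -1.19 (adjusted p = 6.81e-08 and 7.2e-05). Ncr1, Klrb1c and Klre1 were below either reference at both days. The share of all genes below the Cd3 chains was not counted. Below the 13-gene mean it was 99% at day 3 and 96.2% at day 7, so a low place is not particular to these receptors. That Klrd1 rose more than T cell genes therefore holds for the 13-gene mean and not for the Cd3 chains.

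**Figure D3:**
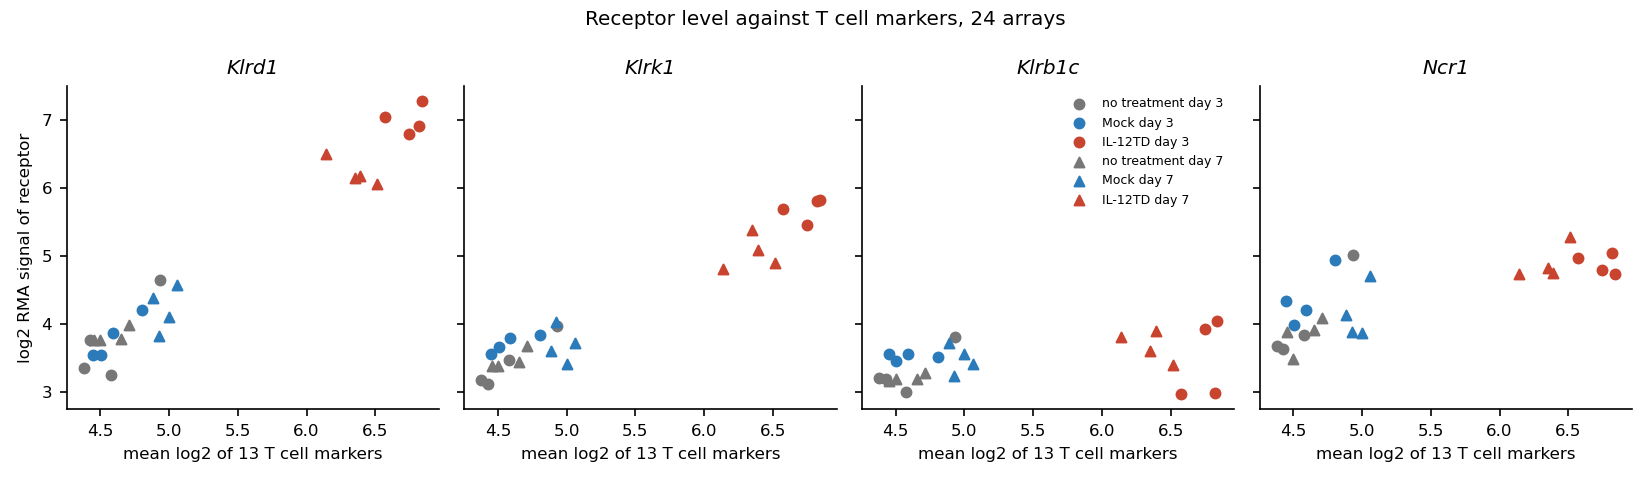
Log2 RMA signal of 4 receptors (y axis) against the mean log2 signal of 13 T cell markers (x axis) on 24 arrays; circles are day 3, triangles day 7, colours the treatment arms. Klrd1 and Klrk1 climb with the markers between arms, Ncr1 climbs little and Klrb1c does not follow them.

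Across the 24 arrays, which share their group structure, Klrd1 had a Pearson r of 0.963 with Klrk1 and 0.946 with Klrg1, and Klrk1 of 0.897 with Klrg1. Ncr1 had r of 0.773 to 0.791 with these, Klrb1c 0.306 to 0.382 and Klre1 0.414 to 0.452. Without the untreated day 3 array numbered 4, r was 0.963 for Klrd1 with Klrk1, 0.953 for Klrd1 with Klrg1 and 0.907 for Klrk1 with Klrg1, and Ncr1 had 0.797 to 0.814 with these. The genes most like Klrd1 were Sh2d2a (0.982), Il2ra (0.981) and Icos (0.979), all genes of activated T cells. Most like Klrk1 were Il12rb2 (0.978), which encodes part of the receptor for IL-12, Ifitm1 (0.978) and Il2ra (0.975). Klrg1 was closest to Prf1 (0.971), which encodes perforin, then Itgal (0.959) and Atp8b4 (0.956). Ncr1 was closest to Ccr2 (0.894), a chemokine receptor of monocytes and lymphocytes, Plac8 (0.878) and Vav1 (0.875). Klre1 was closest to Defb7 (0.823), Olfr794 and Trdv2-2, and Klrb1c to Endou (0.745), Rsph1 and Ckm. Apart from Trdv2-2, these are genes known mainly from other tissues or gene families.

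Deviations from the group means remove the treatment itself. There Klrd1 was closest to Gzmc (0.817), Psmb8 (0.813) and Gzmb (0.778), and Klrg1 to Prf1 (0.805), Gzmd (0.795) and Was (0.793). Gzmb, Gzmc and Gzmd encode granzymes, the proteases of killer granules. Klrk1 was closest to S100a6 (0.8), Atf3 and Gpr141, Ncr1 to Vav1 (0.811), Smim3 (0.811) and Ms4a6b (0.809), Klre1 to Defb7 (0.812) and 2 olfactory receptor genes, and Klrb1c to Anxa13 (0.788). Klrd1 and Ncr1 deviated together with r = 0.713 and Klrg1 and Ncr1 with r = 0.667, but without the untreated day 3 array numbered 4 these were 0.444 and 0.246. Likewise Klrd1 and Klrg1 had r = 0.658 with that array and 0.174 without it, and Klrk1 and Klrg1 0.273 and -0.515, so how these receptors deviated together rested on 1 array. Klrd1 then had 0.605 with Gzmc, 0.626 with Psmb8 and 0.506 with Gzmb, and Klrg1 0.394 with Prf1, 0.539 with Gzmd and 0.638 with Was. Klrk1 had 0.689 with S100a6 and Ncr1 0.679 with Vav1, whereas Klre1 with Defb7 (0.825) and Klrb1c with Anxa13 (0.838) were not lower.

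Of the 18 other killer lectin-like genes with a probeset of their own, 16 were in the list, and Klrb1-ps1 (0.68 and -0.33; adjusted p = 0.00474 and 0.209) and Klrg2 (0.18 and -0.23; 0.235 and 0.172) were not. Of the 16, 10 rose and 0 fell at day 3 against Mock, where 17.3% of all genes were called higher, with a median of 0.717 beside 0.024 over all genes. At day 7, 5 rose and 0 fell, where 12.9% of all genes were called higher, with a median of 0.233 beside -0.08. Klrc1, the inhibitory partner chain of Klrd1, rose from 3.53, 3.45, 4.00 and 3.22 in Mock to 7.15, 6.89, 7.14 and 7.52 at day 3, a difference of 3.63 ± 0.22 (12.3-fold, adjusted p = 1.45e-12). At day 7 it measured 3.56, 3.80, 3.35 and 3.27 in Mock and 6.43, 6.54, 6.53 and 7.1 in IL-12TD, a difference of 3.15 ± 0.22 (8.88-fold, adjusted p = 2.31e-11). The groups did not overlap at either day. The Mock values of Klrc1, like those of Klra5, are under the olfactory yardstick, so these folds are not exact either. Klrc2, the activating partner chain, rose less, by 0.83 and 1.07 (adjusted p = 0.000168 and 1.22e-05).

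Many, though not all, of the Ly49 receptors (Klra genes) bind classical MHC class I. Klra5 went from 2.49, 2.94, 3.15 and 2.90 in Mock to 5.63, 5.56, 5.97 and 5.98 in IL-12TD at day 3, a rise of 2.92 ± 0.15 (7.55-fold, adjusted p = 4.82e-14). At day 7 its IL-12TD values were 3.82, 3.52, 3.82 and 3.78, a rise of 0.85 ± 0.15 (adjusted p = 9.53e-05). The day 7 effect of Klra5 was thus smaller by 2.07 on the log2 scale (adjusted p = 3.81e-07). Klra2 rose by 1.46 and 0.88. Ly49 genes share sequence, and 4 probesets that match several of them rose by 0.43, 0.85, 0.82 and 0.60 at day 3, while 0 of the 4 passed at day 7, so a rise in one Ly49 gene may include signal from another.

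**Figure D4:**
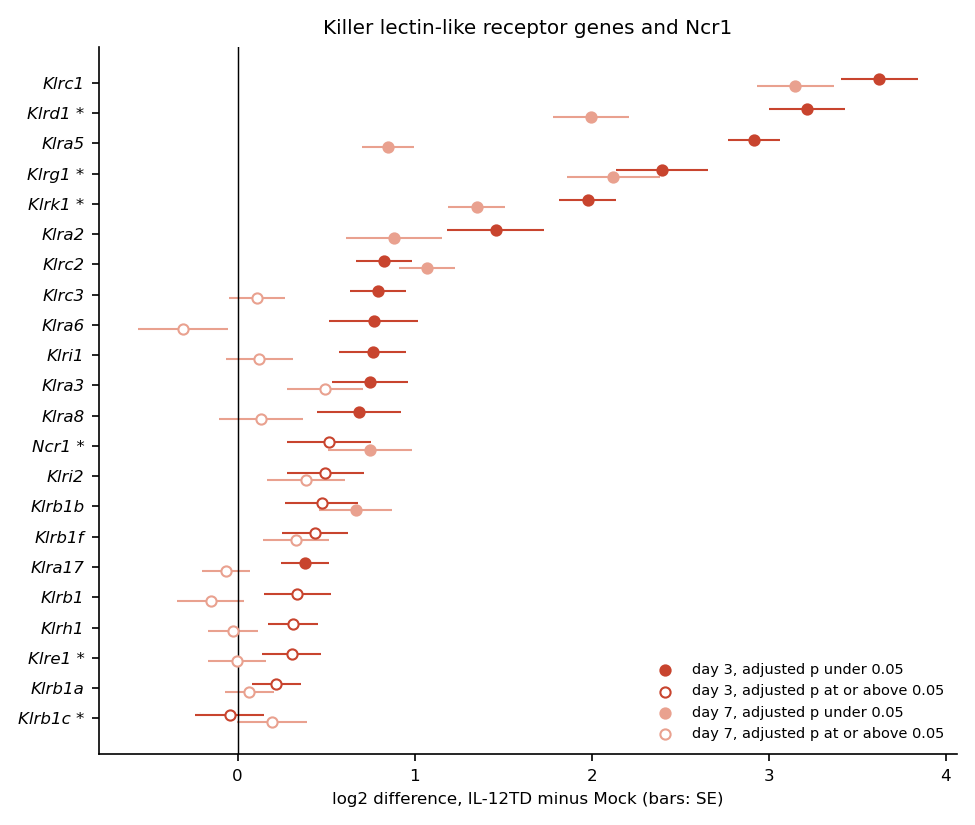
Log2 difference of IL-12TD minus Mock (x axis, points) with its SE (bars) for the 6 receptors (starred) and 16 other killer lectin-like receptors, 4 arrays per group; filled points have an adjusted p under 0.05, dark points are day 3 and light points day 7. Klrc1, Klrd1, Klra5, Klrg1 and Klrk1 lead at day 3, and Klra5 drops most by day 7.

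Of 16 adaptor and proximal signalling genes, 10 rose and 2 fell at day 3 (median 0.629) and 8 rose and 0 fell at day 7 (median 0.494), beside 43.2% and 21.7% of all genes called at the same days. Of the Klrk1 adaptors, Tyrobp rose by 1.48 and 1.13 (limma, adjusted p = 0.000615 and 0.0126), and Hcst gave 0.09 and -0.02 (adjusted p = 0.677 and 0.944). The group means of Hcst, from 4.77 to 5.04, are near the olfactory yardstick, where a change could go unseen. The difference between the adaptors was not tested. Tyrobp is also abundant in myeloid cells. Zap70, a T and NK cell kinase, rose by 1.69 and 1.12, and Lcp2, its adaptor substrate, by 1.94 and 1.58. Ptpn6, the phosphatase that inhibitory receptors recruit, rose by 0.61 at day 3 and 1.45 at day 7, and here the day 7 effect was larger by 0.85 (adjusted p = 0.000219).

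Ligand genes can be expressed by tumour and host cells. Of 14 listed, 6 had a probeset of their own: 1 rose and 2 fell at each day, 3 of 6 called beside 43.2% of all genes at day 3 and 21.7% at day 7, so that the day 3 count is near the background and so is 1 higher of 6 at either day (17.3% and 12.9%). B2m, the light chain of Qa-1 and other class I molecules, rose by 0.76 and 0.92. Raet1d, which encodes an NKG2D ligand, fell by 0.86 and 0.82, and Cdh2, the N-cadherin gene and a Klrg1 ligand, fell by 0.75 and 0.46. Cdh1, the gene of E-cadherin, another Klrg1 ligand, gave 0.17 and 0.33 against Mock (adjusted p = 0.257 and 0.0537) and was higher by 0.52 against no treatment at day 7 (adjusted p = 0.00227).

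Of 12 other surface receptors of NK and T cells, 11 rose at day 3 (median 1.342) and 7 at day 7 (median 0.755), with 0 lower at either, beside 17.3% and 12.9% of all genes called higher. Il2rb, the shared receptor chain for interleukins 2 and 15, rose by 3.06 and 2.85, and Slamf7 by 2.09 and 2.05. Cd27, a costimulatory receptor of less differentiated lymphocytes, rose by 2.59 at day 3 and gave 0.35 at day 7 (adjusted p = 0.138). Cd160 rose by 1.29 and gave 0.26 (adjusted p = 0.156). Among 12 genes of effector and memory differentiation, 8 rose and 2 fell at day 3 and 6 rose and 2 fell at day 7, beside 43.2% and 21.7% of all genes called. Tbx21, the T-bet gene, rose by 2.35 and 1.09, Prdm1 by 1.66 and 1.06, Il7r by 1.81 and 1.64 and Id2 by 1.06 and 1.55. Ccr7, the lymph node homing receptor, rose by 1.18 at day 3 and fell by 0.45 at day 7.

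Cell type markers measured beside the receptors were as follows. Of 7 NK cell markers outside the 6 receptors, 4 rose at day 3 and 1 at day 7, the second count near the 12.9% of all genes called higher then (17.3% at day 3). Txk rose by 1.07 and 1.11, Nfil3 by 1.05 and 0.10 (adjusted p = 0.729 at day 7), and Eomes by 0.64 and 0.46 (adjusted p = 0.0752 at day 7); T cells also express these 3. Klra8, a Ly49 receptor of NK cells, rose by 0.68 at day 3 (adjusted p = 0.0218) and gave 0.13 at day 7 (adjusted p = 0.708). Itga2, the DX5 antigen, gave -0.18 and 0.35. Of 13 T cell markers, 12 rose at day 3 and 9 at day 7, Cd8a by 3.00 and 2.06 and Cd3g by 4.99 and 4.08. All 13 pan-leukocyte markers rose at both days.

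Of 8 macrophage and neutrophil markers, 3 rose at day 3 and 2 at day 7, with 0 lower. At day 3 these were the neutrophil genes S100a8 (4.17), S100a9 (4.10) and Retnlg (2.28), which gave -0.14, 0.02 and -0.29 at day 7, when Adgre1, a surface marker of macrophages, rose by 1.18 and Itgam, which encodes CD11b, by 0.77. Of 4 B cell markers, Cd79a, Ms4a1 and Cd79b rose at day 3 by 0.72, 0.67 and 0.42, and at day 7 Cd79a fell by 0.63 (adjusted p = 0.0329). Of 6 melanocyte markers, 3 fell at day 3 and 1 at day 7, with 0 higher. Of all genes, 43.2% were called at day 3 (17.3% higher) and 21.7% at day 7 (12.9% higher). The melanocyte counts, and the macrophage and neutrophil count at day 7, are near the shares called. The part of these cells in the receptor results was not tested.

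The mean over the NK markers ran from 4.86 to 5.14 in IL-12TD day 3 arrays against 4.11 to 4.61 in Mock, and from 4.67 to 4.96 against 4.22 to 4.50 at day 7. The T cell marker mean ran from 6.57 to 6.84 against 4.45 to 4.81 and from 6.14 to 6.51 against 4.89 to 5.06. Of 5 markers of innate-like lymphocytes, 3 rose and 1 fell at day 3 and 3 rose at day 7, beside 43.2% and 21.7% of all genes called. Cxcr6, which is also a gene of tissue T cells, rose by 3.43 and 2.95. The share of each cell type in the rise of the receptors was not tested. Melanocyte markers averaged between 10.95 and 11.34 in each group.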

How the data were processed

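The authors deposited 1 table of log2 probeset intensities; the submitters' processing notes name RMA as the tool, while the software version and whether all arrays were normalised together are not given in the sources used here, and the log2 unit was read from the values (1.009 to 14.367). Of 35556 probesets, 21789 list a single gene, 1621 several and 12146 none; the brightest single-gene probeset was kept per gene (19938 genes). For Mock at day 7, the treatment field says day 3 and every other field day 7, which was used. No 2 arrays were identical (0 pairs). The series calls replicates biological without naming animals.

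Tests used limma 3.58.1 under R 4.3.3 (lmFit, eBayes, 6 group means over 24 arrays, two-sided) with Benjamini-Hochberg adjustment over all genes and a threshold of 0.05. On simulated data for IL-12TD against Mock at day 3 it recovered 91% of 100 genes changed by a log2 of 1 and 100% of 100 changed by 2, with 9 false calls among 19938 genes. The members, classes and gene lists were chosen with earlier results of these data known; the motifs were chosen after the sequences were seen. Text names all 6 receptors, up to 4 members of each list by smallest adjusted p at either day, and the 3 genes most like each receptor; Hcst, Tyrobp, Eomes and Itga2 were added for their roles after their values were seen. Alternatives covered normalisation, dim genes, the variance prior, array weights, the groups fitted, replicate blocks, probesets, references and each array left out. Number of arrays limits the precision.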

Additional observations from a re-analysis of the deposited data

Results flagged for a closer look

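A pair of readings stood apart within a group of 4 by Dixon's ratio, among 36 groups screened, where chance gives about 1 in 20. This many readings are near what chance gives. Klrd1 was highest in the untreated day 7 tumour numbered 3, at 3.99 against 3.76 to 3.78 in the other 3 (ratio 0.924). Ncr1 was highest in the untreated day 3 tumour numbered 4, at 5.01 against 3.63 to 3.84 (ratio 0.853); its pan-leukocyte marker mean was also the highest of its group, at 7.47. The effect of IL-12TD against Mock differed between days, by the interaction test, for Klrd1 (-1.22, adjusted p = 0.00285) and Klrk1 (-0.63, adjusted p = 0.030). Causes were not tested.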

How the results depend on the processing

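For IL-12TD against Mock, the calls of Klrd1, Klrk1 and Klrg1 held at both days in 34 of 34 alternatives. After a second quantile normalisation 1 receptor remained called in the interaction (Klrd1; Klrk1 at -0.54), Klre1 turned to 0.10 in IL-12TD against Mock at day 7 and to 0.00 in the interaction, and Klrb1c to -0.05 in IL-12TD against no treatment at day 3; the cause was not tested. With array weights Ncr1 turned to -0.01 in the interaction, and 1 receptor (Klrd1) passed between days in Mock; with only the groups compared 1 (Klrg1) passed there. Without dim genes, which by construction drops Klre1 and Klrb1c, 2 receptors differed from the T cell markers at day 3 and 3 at day 7.

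Leaving out each array in turn moved the number called from 1 to 2 in the interaction, from 0 to 2 between days in Mock and from 0 to 1 between days without treatment. It also moved Klrb1c from -0.23 to 0.13 in IL-12TD against Mock and from -0.01 to 0.35 against no treatment at day 3, and Klre1 from -0.13 to 0.10 against Mock at day 7. The other 470 recomputed counts stayed within 1.5 times, although the receptors behind a count could change. With the Cd3 chains as reference in place of all T cell markers, 5 receptors differed at day 3 and 4 at day 7. The share of all genes that differed from these chains was not counted. Klrd1 was in neither count by the moderated test (the ordinary t called it lower at day 7, adjusted p = 0.0125). With Ncr1 alone in place of the pair, Klre1 replaced Klrk1 among 3 at day 7. The replicate numbers were not taken to pair the arrays. In deviations from group means, same-numbered arrays correlated from -0.28 to 0.52 (median -0.013), 18 of 60 above 0.1. Differently numbered arrays correlated from -0.55 to 0.31 (median -0.013), 42 of 180 above 0.1. The highest value was thus between same-numbered arrays, while the medians were alike. With the replicate number as a block, 3 receptors were called against Mock at day 3 and 4 at day 7, and no count changed.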
